A study of Mus musculus with 6 samples.

Results

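The transcripts of 10 genes of the circadian clock were followed in mouse liver, namely Arntl, Clock, Per1, Per2, Cry1, Nr1d1, Nr1d2, Dbp, Tef and Nfil3. The genes were chosen by name as core clock factors and PAR bZIP output factors, and all 10 were found among the 54532 genes of the deposited table. All 10 passed the filter on low values (0.5 FPKM or more in 3 or more of the 6 libraries). Levels are in FPKM, the reads of a gene scaled to its length and to a constant of the library. Liver RNA came from 3 samples labelled HKO, in which G3bp1, the gene of an RNA-binding protein of stress granules, was deleted in hepatocytes, and from 3 G3bp1-Flox litter controls. Mice of both groups began a high-fat diet at 6 weeks of age and stayed on it for 12 weeks, and the study asked how G3BP1 affects non-alcoholic steatohepatitis. The sources used here give neither the driver of the deletion, nor the time of day at which tissue was taken, nor the feeding state. A deletion confined to hepatocytes leaves G3bp1 in other liver cells, but its level per cell type was not measured here. No label says that each library came from its own mouse, so the p-values speak only for the spread among these samples, and part of that spread may be technical.

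The clock of a mammalian cell is a feedback loop of transcription. ARNTL (also called BMAL1) and CLOCK pair up and switch on the Per, Cry, Nr1d, Dbp and Tef genes through a DNA motif called the E-box, and the PER and CRY proteins then inhibit that pair. The nuclear receptors NR1D1 and NR1D2 (REV-ERB alpha and beta) repress Arntl, Cry1 and Nfil3 through ROR elements, while DBP and TEF activate, and NFIL3 represses, genes that carry a D-box. In mouse liver these transcripts rise and fall over the day, with Arntl and Cry1 high at times when Per and Dbp transcripts are low.

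The sequences that tie the members to this loop were looked up in RefSeq windows (GRCm38.p6) from 250 bases before to 50 bases after each annotated start, which matched 9 of the 10 members (not Per2) with 14 windows. An E-box, searched as CACGTG, was present at Cry1, Per1 and Tef, and in 7.15% of all 32851 windows. A member can have several windows, so presence per gene and a share per window are unlike counts. Tef had a further E-box match in an annotated exon, chr15:81802536-81802561, which is not printed below. A ROR element, searched as ANTNGGTCA on both strands, was present at Arntl and Nfil3, and in 2.24% of all windows. The D-box TTANGTAA (2.32% of all windows) and the CRE TGACGTCA (1.79%), also searched on both strands, were found in 0 of the members' windows, and no matches overlapped one another. These are matches of letters and not measured binding sites. They are shown because the 2 motifs stand for opposite arms of the loop, with the motif in capitals and each read 5′ to 3′ on the strand of the gene.
Cry1, E-box upstream of the gene, chr10:85185082-85185141, minus strand: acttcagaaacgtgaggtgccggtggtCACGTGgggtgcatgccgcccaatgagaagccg
Per1, E-box in an intron of the longest gene model, chr11:69098756-69098815, plus strand: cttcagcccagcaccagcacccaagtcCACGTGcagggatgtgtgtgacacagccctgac
Tef, E-box in an intron of the longest gene model, chr15:81811249-81811308, plus strand: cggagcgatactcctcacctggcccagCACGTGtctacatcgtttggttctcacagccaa
Arntl, ROR element in an annotated exon, chr7:113207529-113207557, plus strand: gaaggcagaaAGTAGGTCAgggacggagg
Nfil3, ROR element with its flank in an annotated exon, chr13:52981033-52981061, minus strand: cgctcggaacTGACCTACTaacacacatc

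The libraries held 15804115 to 17954066 reads on genes. G3bp1 stood at 8.46, 8.46 and 9.10 FPKM in Flox 1, Flox 2 and Flox 3 and at 4.66, 4.28 and 4.44 FPKM in HKO 1, HKO 2 and HKO 3, so each library matched its label (log2 difference -0.83, adjusted p = 0.11 in limma). Hepatocyte markers (Alb, Apoa1, Ttr, Cyp2e1 and Tdo2) summed to between 40420 and 49330 FPKM, and the neutrophil marker Ly6g was listed at 0 in all 6 libraries. The 6 Kupffer cell markers summed to 72.4, 73.9 and 142 FPKM in Flox 1, Flox 2 and Flox 3 and to 192, 118 and 146 FPKM in HKO 1, HKO 2 and HKO 3, with a higher HKO mean for 6 of 6. The 3 erythroid markers summed to 308, 272 and 303 FPKM in Flox 1, Flox 2 and Flox 3. In HKO 1, HKO 2 and HKO 3 they summed to 124, 253 and 191 FPKM, and only these sums lay apart from those of Flox as a whole. Singly, Hba-a1 lay lower in all HKO libraries than in all Flox ones, while Hbb-bs and Alas2 overlapped. Of the 5 hepatocyte markers, Apoa1 and Ttr also lay lower in all HKO libraries, beside 7.21% of all genes tested. In limma 0 markers of these 3 cell types passed, with 5 at an unadjusted p under 0.05, beside 7.62% of all genes tested. The mean was higher in HKO for 4 of 4 endothelial, 3 of 4 stellate and 2 of 3 tested cholangiocyte markers. It was lower for 2 of 2 tested neutrophil markers. None of these had an unadjusted p under 0.05 in limma. In bulk tissue a change in the number of cells of a type and a change in RNA per cell cannot be told apart.

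None of the 10 clock genes passed the test between HKO and Flox livers. The clearest separation was in Nfil3, the repressor of D-box genes, whose 3 HKO values lay above the 3 Flox values, without passing over all genes. Its counterpart Dbp had a lower mean in HKO, and that difference rested largely on HKO 2. For Arntl, Per1, Per2, Cry1, Nr1d1, Nr1d2 and Tef the SD within groups exceeded the difference between the group means, both on the log2(FPKM + 1) scale. For Clock, Dbp and Nfil3 it did not. Both groups held libraries with high Arntl and Cry1 and libraries with low Arntl and Cry1. A log2 difference below is the mean log2(FPKM + 1) of HKO minus that of Flox, a scale on which changes of weakly expressed genes come out too small.

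Arntl and Clock encode the activating pair. Arntl (ENSMUSG00000055116, chromosome 7, 113207465 to 113314126, plus strand, GRCm38) stood at 1.116, 1.155 and 0.419 FPKM in Flox 1, Flox 2 and Flox 3 and at 0.577, 1.51 and 0.645 FPKM in HKO 1, HKO 2 and HKO 3. The 3 highest values were those of HKO 2, Flox 2 and Flox 1, and the highest library was 3.61 times the lowest. The group means of Arntl were 0.897 ± 0.414 FPKM in Flox and 0.912 ± 0.522 in HKO (SD, n = 3). The log2 difference of Arntl was 0.004 (SE 0.235, adjusted p = 0.998 in limma). Its values rested on 53 to 190 reads. The 95% exact Poisson interval of the lowest of the 3 high libraries (0.932 to 1.33 FPKM in Flox 1) did not overlap that of the highest of the low ones (0.519 to 0.793 FPKM in HKO 3). These intervals cover counting error only.

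Clock (ENSMUSG00000029238, chromosome 5, 76209868 to 76304792, minus strand) was nearly level in 4 libraries. Its levels were 2.63, 2.55 and 2.56 FPKM in the 3 Flox samples and 2.62, 4.72 and 3.17 FPKM in HKO 1, HKO 2 and HKO 3. HKO 2 lay above all other libraries, followed by HKO 3, while HKO 1 lay within the Flox range. Clock had a log2 difference of 0.31 (SE 0.168, adjusted p = 0.685 in limma) and 0.12 without HKO 2.

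The inhibitors of that pair, Per1, Per2 and Cry1, fell into opposite patterns over the same libraries. Per1 (ENSMUSG00000020893, chromosome 11, 69095217 to 69109960, plus strand) stood at 1.66, 0.706 and 2.39 FPKM in Flox 1, Flox 2 and Flox 3. In HKO 1, HKO 2 and HKO 3 it stood at 2.87, 0.777 and 2.31 FPKM. Flox 2 and HKO 2 were the lowest libraries of Per1, and HKO 1, Flox 3 and HKO 3 the highest. The log2 difference of Per1 was 0.19 (SE 0.358, adjusted p = 0.885 in limma), and it was -0.08 without Flox 2 and -0.04 without HKO 1. Per2 (ENSMUSG00000055866, chromosome 1, 91415982 to 91459324, minus strand) stood at 2.28, 2.18 and 4.16 FPKM in the 3 Flox samples and at 3.35, 2.93 and 4.22 FPKM in HKO 1, HKO 2 and HKO 3. HKO 3, Flox 3 and HKO 1 were again the highest libraries. For Per2 the log2 difference was 0.24 (SE 0.208, adjusted p = 0.748 in limma), and it ranged from 0.12 without Flox 2 to 0.47 without Flox 3, with 0.13 without HKO 3 and 0.14 without Flox 1.

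Cry1 (ENSMUSG00000020038, chromosome 10, 85131700 to 85185064, minus strand) stood at 4.05, 5.52 and 2.87 FPKM in Flox 1, Flox 2 and Flox 3 and at 2.18, 5.72 and 2.62 FPKM in HKO 1, HKO 2 and HKO 3. HKO 2, Flox 2 and Flox 1 were the 3 highest libraries, in the same order as for Arntl. HKO 1, the lowest library of Cry1, was the highest of Per1, and both genes carry the E-box letters printed above. Between the groups Cry1 differed by -0.24 on the log2 scale (SE 0.317, adjusted p = 0.825 in limma), and it ranged from -0.57 without HKO 2 to -0.03 without HKO 1.

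**Figure D1:**
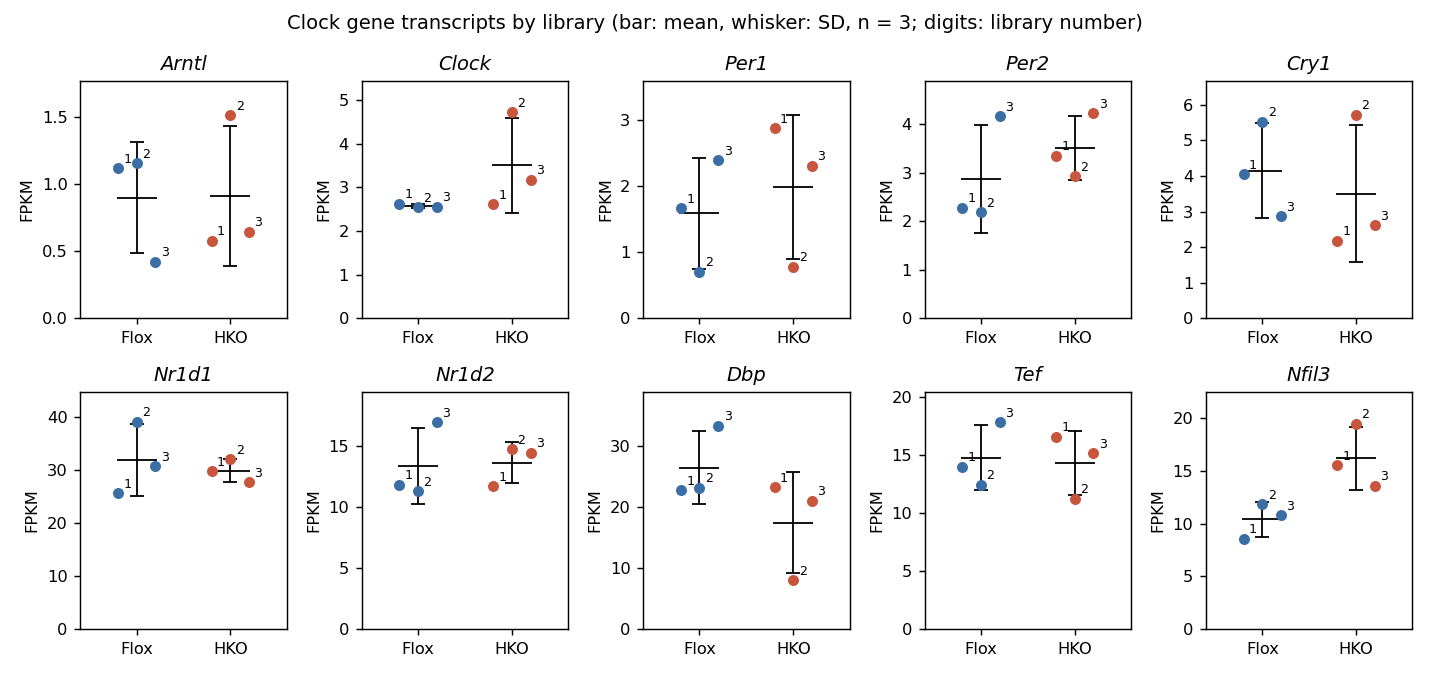
FPKM of each of the 10 clock genes (vertical axes, from 0) in the Flox and HKO livers, 1 point per library with its number, the bar at the group mean and the whisker at the SD (n = 3). In the panel of Nfil3 the 3 HKO points lie above the 3 Flox points, while the groups overlap in the other 9 panels.

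The REV-ERB receptors, which repress Arntl, had the smallest fold between their highest and lowest libraries, 1.53 for Nr1d1 and 1.504 for Nr1d2. Nr1d1 (ENSMUSG00000020889, chromosome 11, 98767932 to 98775333, minus strand) was the most abundant of the 10 genes per length. Its levels were 25.7, 39.2 and 30.8 FPKM in the 3 Flox samples and 29.9, 32.1 and 27.7 FPKM in HKO 1, HKO 2 and HKO 3. The highest and the lowest Nr1d1 values, those of Flox 2 and Flox 1, both belonged to the control group. The log2 difference of Nr1d1 was -0.07 (SE 0.162, adjusted p = 0.902 in limma). Its exons overlap those of Thra on the other strand over 8.55% of its exonic bases, and the library kit does not mark strand, so reads there could not be told apart. Nr1d2 (ENSMUSG00000021775, chromosome 14, 18204054 to 18239127, minus strand) stood at 11.8, 11.3 and 16.9 FPKM in the 3 Flox samples and at 11.7, 14.7 and 14.4 FPKM in HKO 1, HKO 2 and HKO 3. Flox 3 was its highest library and Flox 2 its lowest. For Nr1d2 the log2 difference was 0.04 (SE 0.171, adjusted p = 0.951 in limma).

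The output factors that bind D-boxes came next. Dbp (ENSMUSG00000059824, chromosome 7, 45705088 to 45710203, plus strand) stood at 22.8, 23.1 and 33.3 FPKM in Flox 1, Flox 2 and Flox 3. It stood at 23.2, 7.95 and 20.99 FPKM in HKO 1, HKO 2 and HKO 3, so HKO 2 lay far below the other 5 libraries. The group means of Dbp were 26.4 ± 5.96 FPKM in Flox and 17.4 ± 8.25 in HKO (SD, n = 3). The log2 difference of Dbp was -0.68 (SE 0.389, adjusted p = 0.686 in limma), and it was -0.23 without HKO 2. The low value rested on 397 reads, with a 95% exact Poisson interval of 7.18 to 8.77 FPKM. Of the exonic bases of Dbp, 18% overlap those of Sphk2 on the other strand.

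Tef (ENSMUSG00000022389, chromosome 15, 81802421 to 81826863, plus strand), the other activator at D-boxes, stood at 14.0, 12.4 and 17.8 FPKM in the 3 Flox samples and at 16.6, 11.2 and 15.2 FPKM in HKO 1, HKO 2 and HKO 3. HKO 2 was the lowest library of Tef as of Dbp, and Flox 3 the highest of both. Tef had a log2 difference of -0.04 (SE 0.181, adjusted p = 0.952 in limma).

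Nfil3 (ENSMUSG00000056749, chromosome 13, 52967209 to 52981073, minus strand) stood at 8.54, 11.8 and 10.8 FPKM in Flox 1, Flox 2 and Flox 3 and at 15.5, 19.5 and 13.6 FPKM in HKO 1, HKO 2 and HKO 3. The lowest HKO library lay above the highest Flox library. The group means of Nfil3 were 10.4 ± 1.68 FPKM in Flox and 16.2 ± 2.996 in HKO (SD, n = 3), a level 55.7% higher in HKO. The log2 difference of Nfil3 was 0.59 (SE 0.165), with an unadjusted p of 0.00875 and an adjusted p of 0.592 in limma. The exact permutation p was 0.1, the smallest that 3 against 3 libraries allow. The log2 difference was 0.46 to 0.70 with 1 library left out, and over all alternatives the adjusted p ranged from 0.263 to 0.989. The 6 Kupffer cell markers had higher means and the 3 erythroid markers lower sums in HKO, as given above, and the part of either in the Nfil3 values was not tested.

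Set against all 11856 genes tested, the clock genes did not stand out in the comparison of the groups. At an adjusted p under 0.05, limma called 0 of the 10 members and 0.00843% of all genes, and limma's voom on recovered reads also called 0 members. At an unadjusted p under 0.05 there was 1 of the 10 (Nfil3), beside 7.62% of all genes. HKO libraries lay all above Flox libraries in 1 member (Nfil3), beside 6.06% of all genes, and all below in 0 members, beside 7.21%. The mean was higher in HKO for 6 of the 10, beside 48.8% of all genes, against 8 of 10 after rescaling to TPM (5 once the 0.147 by which that scaling shifted the all-gene median was taken off). The median log2 difference was 0.02 over the members and -0.01 over all genes tested.

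The spread between libraries of one group was wider for the clock genes than for most genes. The median SD within groups, on the log2(FPKM + 1) scale, was 0.287 over the 10 members and 0.159 over all genes tested. It was 0.156 over the 8954 genes whose mean level lay within the members' range of 0.904 to 30.9 FPKM. Dbp, Per1, Cry1 and Arntl had the widest spreads, above those of 97.02%, 96.3%, 95.1% and 89.7% of all genes tested. Nr1d1 had the narrowest of the 10, above that of 71.9% of genes. Over all 6 libraries, 4 of the 10 members (40%) spanned more than 1 log2 unit, beside 9.35% of all genes tested. Such a spread was not particular to the clock genes. The median SD was 0.285 for genes that follow body temperature, 0.336 for glucocorticoid targets, 0.426 for Kupffer cell markers and 0.576 for genes of feeding and fasting. No test was applied to the spread.

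**Figure D2:**
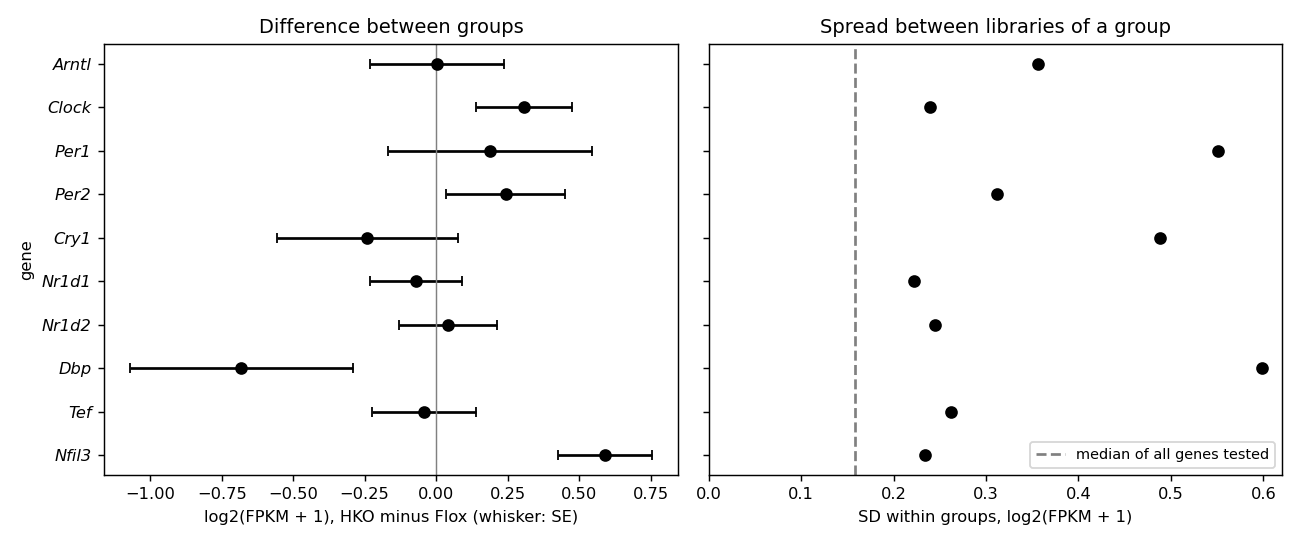
Left, the HKO minus Flox difference of each clock gene on the log2(FPKM + 1) scale with its SE from limma; right, the SD within groups on the same scale, with the median of all genes tested as a dashed line. Differences scatter on both sides of 0 from -0.68 for Dbp to 0.59 for Nfil3, and all 10 spreads lie to the right of the median of 0.159.

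Ratios of 2 members within a library do not depend on how libraries are scaled, and 3 of them were computed. Nr1d1 was 23.0, 33.9 and 73.4 times as high as Arntl in Flox 1, Flox 2 and Flox 3, and 51.8, 21.2 and 43.0 times as high in HKO 1, HKO 2 and HKO 3. Flox 3 had the highest of these ratios and HKO 2 the lowest. Per2 stood to Cry1 at 0.562, 0.396 and 1.45 in the Flox livers and at 1.54, 0.511 and 1.61 in HKO 1, HKO 2 and HKO 3. Per2 thus exceeded Cry1 in Flox 3, HKO 1 and HKO 3, and Cry1 exceeded Per2 in Flox 1, Flox 2 and HKO 2. Neither ratio separated the groups (exact permutation p = 0.9 for Nr1d1 to Arntl and 0.4 for Per2 to Cry1, two-sided, adjusted over 3 ratios 0.9 and 0.6).

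The ratio of the activator Dbp to the repressor Nfil3 had its 3 HKO values below its 3 Flox values. This ratio is not independent of Nfil3, whose own values separated the groups, while those of Dbp overlapped. It was 2.66, 1.96 and 3.08 in Flox 1, Flox 2 and Flox 3 and 1.495, 0.408 and 1.55 in HKO 1, HKO 2 and HKO 3. The mean log2 ratio was 1.33 ± 0.335 in Flox and -0.03 ± 1.10 in HKO (SD, n = 3). The exact permutation p of that difference was 0.1, the smallest possible here, and 0.3 adjusted over the 3 ratios. The difference in log2 ratio was -1.36, and -0.73 without HKO 2.

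**Figure D3:**
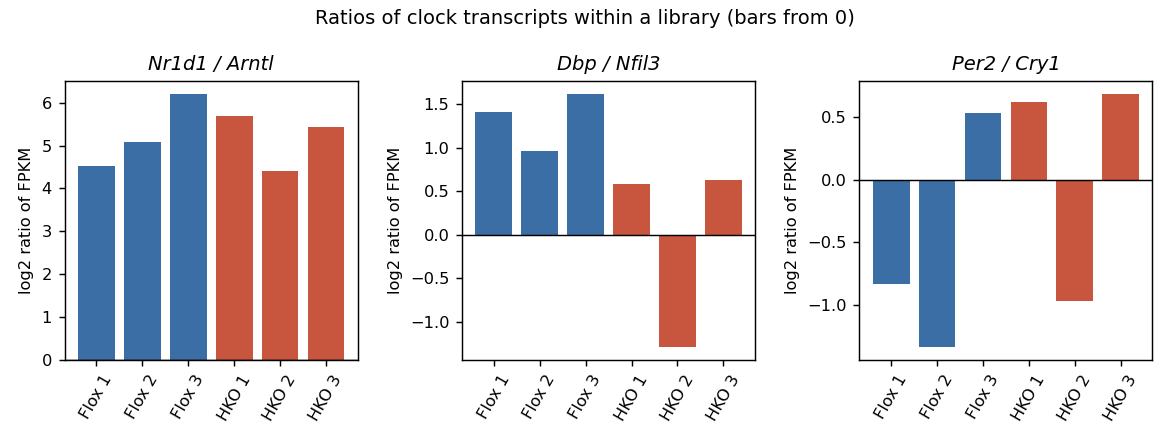
Log2 ratio of the FPKM of 2 clock genes within each library, with Flox livers in blue and HKO livers in red and bars drawn from 0. The 3 HKO bars of Dbp to Nfil3 (0.58, -1.29 and 0.63) lie below the 3 Flox bars (1.41, 0.97 and 1.62), while Per2 to Cry1 is above 0 in Flox 3, HKO 1 and HKO 3.

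Of 19 further genes of the clock, 15 were tested and 0 passed in limma, with 2 at an unadjusted p under 0.05 (Cry2 and Bhlhe40), both lower in HKO, beside 7.62% of all genes in either direction. Voom on recovered reads also called 0 of them. The mean was higher in HKO for 7 and lower for 8, with a median log2 difference of -0.01. Their median SD within groups, 0.127, was below the 0.159 of all genes tested. Cry2, the second cryptochrome, stood at 5.25, 5.46 and 5.09 FPKM in the 3 Flox samples and at 4.50, 4.50 and 3.93 in the HKO livers, without overlap (log2 difference -0.24, adjusted p = 0.648 in limma). Bhlhe40, a repressor that competes for E-boxes, stood at 47.9, 30.7 and 43.5 FPKM in the 3 Flox samples and at 14.8, 17.1 and 37.7 FPKM in HKO 1, HKO 2 and HKO 3. HKO 1 and HKO 2 lay below all Flox libraries, and HKO 3 within their range (log2 difference -0.88, adjusted p = 0.648 in limma). The kinase gene Csnk1d was named after its values were seen, as the member of that list with HKO libraries all above Flox. It stood at 11.2, 11.3 and 10.9 FPKM in Flox and at 12.2, 12.3 and 11.9 in HKO (log2 difference 0.11, adjusted p = 0.729 in limma). Of the 15 tested, 1 lay all above and 1 (Cry2) all below, beside 6.06% and 7.21% of all genes.

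Ciart, a repressor of the activating pair, showed the pattern of Per2. Its levels were 0.317, 0.209 and 0.895 FPKM in the 3 Flox samples and 0.723, 0.212 and 0.930 FPKM in HKO 1, HKO 2 and HKO 3, so Flox 3, HKO 1 and HKO 3 were the highest libraries. The values of Ciart rested on only 7 to 39 reads. Per3 was highest in Flox 3 and HKO 3, at 1.67 and 1.16 FPKM, and lay between 0.624 and 0.833 FPKM in the other 4. Npas2, a partner of ARNTL that stands in for CLOCK, did not pass the filter. Its levels were 0.502, 0.478 and 0.0869 FPKM in the 3 Flox samples and 0.106, 0.275 and 0.180 FPKM in HKO 1, HKO 2 and HKO 3, with its highest values in the libraries high in Arntl. The values of Npas2 rested on only 7 to 37 reads. Rora was highest in HKO 2, at 6.37 FPKM, and lay between 3.51 and 4.98 FPKM in the other 5 libraries. Fbxw11, part of a ubiquitin ligase, lay between 6.82 and 9.80 FPKM. Hlf, the third PAR bZIP activator, was nearly level, between 9.03 and 10.1 FPKM.

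**Figure D4:**
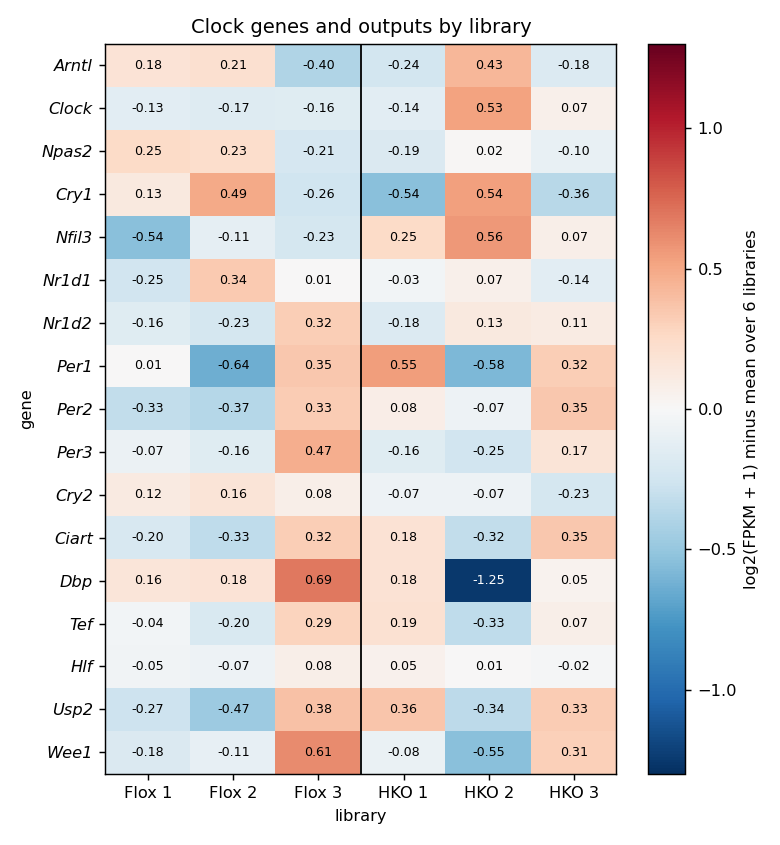
Log2(FPKM + 1) minus the mean over the 6 libraries for the 10 clock genes and 7 related genes (rows) in each library (columns, Flox to the left of the line), with red above and blue below the mean. Arntl and Cry1 are red in Flox 1, Flox 2 and HKO 2, where Per2, Ciart and Usp2 are blue, and Dbp has its lowest value, -1.25, in HKO 2.

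Liver genes known as outputs of the clock spread even more. All 15 listed genes were tested and 0 passed in limma or in voom on recovered reads, with 0 at an unadjusted p under 0.05 in limma. Their median SD within groups was 0.435. Alas1, the first enzyme of haem synthesis, stood at 20.9, 10.02 and 39.7 FPKM in the 3 Flox samples and at 37.4, 11.4 and 81.4 FPKM in HKO 1, HKO 2 and HKO 3. Cyp7a1, the rate-limiting enzyme of bile acid synthesis, stood at 6.58, 3.15 and 14.6 FPKM in the 3 Flox samples and at 20.6, 5.51 and 29.9 FPKM in HKO 1 to HKO 3. Both genes were highest in Flox 3, HKO 1 and HKO 3, the libraries in which Per2 exceeded Cry1. Elovl3, a fatty acid elongase, ran the other way. Its levels were 148, 220 and 56.5 FPKM in the 3 Flox samples and 77.0, 188 and 116 FPKM in HKO 1, HKO 2 and HKO 3, so it was highest in Flox 2, HKO 2 and Flox 1.

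Some other outputs stood out in a single library. Upp2, a uridine phosphorylase, stood at 74.8 FPKM in Flox 3 and between 13.5 and 23.8 in the other 5 libraries. Nampt, which makes the precursor of NAD, stood at 19.8 FPKM in Flox 3 and between 6.396 and 10.7 in the others, with HKO 1 and HKO 3 next. Lpin1, a phosphatidate phosphatase, stood at 17.9 FPKM in HKO 3 and at 7.03 in Flox 3, with the others between 2.65 and 5.05. Usp2 and Wee1 were named after their values were seen. Usp2, a ubiquitin protease, stood at 0.810, 0.573 and 1.84 FPKM in the 3 Flox samples and at 1.80, 0.721 and 1.75 in HKO 1, HKO 2 and HKO 3. Wee1, a cell cycle kinase, stood at 1.26, 1.38 and 2.92 FPKM and at 1.42, 0.754 and 2.18 FPKM in the same order. The 3 highest libraries of both were again Flox 3, HKO 1 and HKO 3. Kupffer cell markers also had their 3 highest sums in these libraries, and their part in the clock patterns was not tested.

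**Figure D5:**
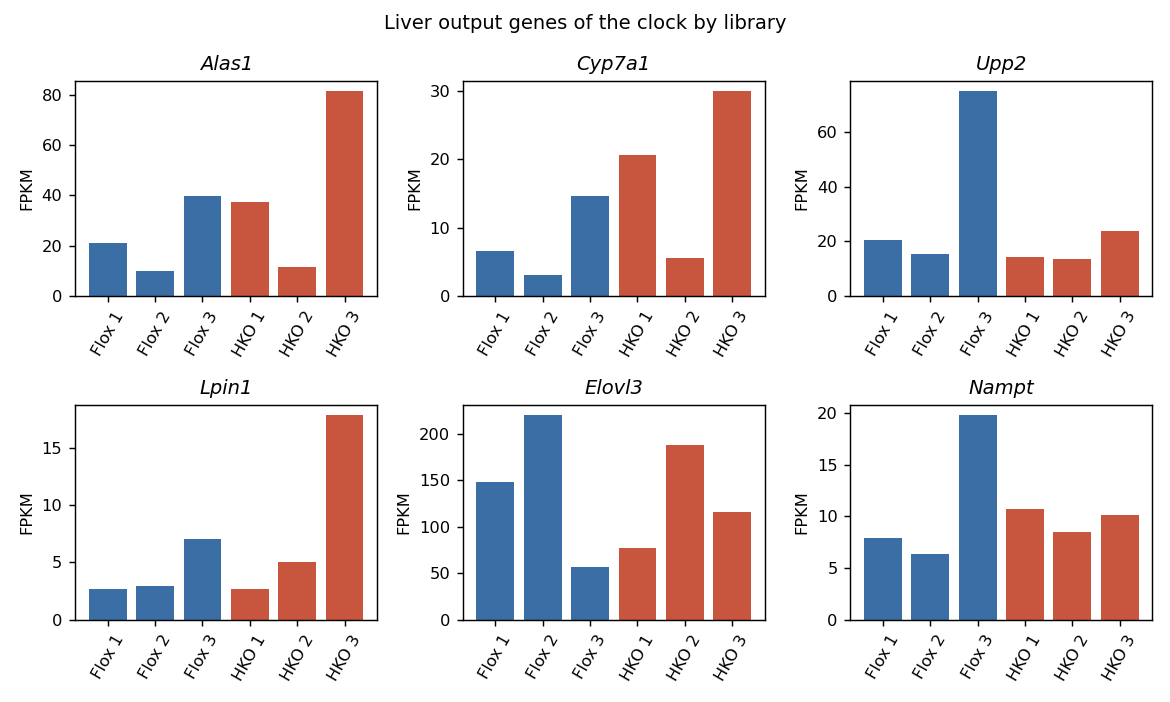
FPKM (vertical axes, from 0) of 6 liver output genes of the clock in each library, with Flox livers in blue and HKO livers in red. Alas1 and Cyp7a1 are highest in HKO 3 and lowest in Flox 2, Elovl3 is highest in Flox 2 and lowest in Flox 3, and Upp2 and Nampt peak in Flox 3.

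Genes that follow glucocorticoids, body temperature and feeding, cues that set the liver clock, were read from lists beside these. Of the glucocorticoid targets, Tsc22d3 stood at 18.6, 10.9 and 19.4 FPKM in the 3 Flox samples and at 23.5, 22.9 and 29.6 FPKM in HKO 1 to HKO 3, without overlap (log2 difference 0.64, adjusted p = 0.648 in limma, and 0.39 without Flox 2, its lowest library). Sgk1 was lowest in Flox 2, at 2.43 FPKM, and highest in HKO 2, at 6.87, and Tat, a tyrosine-degrading enzyme, lay between 376 and 740 FPKM. Cirbp, a cold-inducible RNA-binding protein, stood at 5.92, 7.94 and 5.05 FPKM in the 3 Flox samples and at 6.71, 3.13 and 3.65 FPKM in HKO 1, HKO 2 and HKO 3. Rbm3, also induced by cold, lay between 3.74 and 7.44 FPKM, and the heat shock gene Hspa1b between 1.35 and 5.46, highest in Flox 3. The lipogenic gene Fasn stood at 163 and 147 FPKM in Flox 3 and HKO 3 and between 18.3 and 45.8 in the other 4 libraries. Its regulator Srebf1 was likewise highest in Flox 3 and HKO 3, at 183 and 170 FPKM. Igfbp1, a gene of fasting, stood at 33.0, 117 and 49.1 FPKM in the 3 Flox samples and at 13.1, 62.0 and 97.2 in HKO 1, HKO 2 and HKO 3. Flox 3 and HKO 3, the highest libraries of Fasn and Srebf1, were also the highest of Per2, and the part of feeding in the clock patterns was not tested. Of the 5 glucocorticoid, 7 temperature and 9 feeding genes tested, 0 passed in limma and 1 (Tsc22d3) had an unadjusted p under 0.05, beside 7.62% of all genes.

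The genes outside these lists whose pattern over the 6 libraries was most like that of Arntl were sought among 9200 genes of at least 1 FPKM on average. Likeness was the root mean square difference of centred log2(FPKM + 1) values, where 0 is identical. The closest were Abtb2 (0.0714), Sdr9c7 (0.0828), Serpine2 (0.0846), Cela1 (0.101) and Sh3pxd2a (0.106). Among the clock genes Cry1 (0.199) was nearest to Arntl. Because 1 is added to FPKM, Arntl's range is compressed on this scale and that of abundant genes is not, so the order of these genes depends on the scale. Cela1, a pancreatic-type elastase gene, stood at 40.3, 37.4 and 26.6 FPKM in the 3 Flox samples and at 24.7, 43.8 and 31.8 FPKM in HKO 1, HKO 2 and HKO 3. The closest to Dbp were Snord53 (0.227), 2010003K11Rik (0.269), Cd36 (0.304), Slc22a27 (0.318) and Ly6d (0.334). Snord53, a small nucleolar RNA, stood at 0.834, 1.73 and 2.29 FPKM in the 3 Flox samples. In HKO 1, HKO 2 and HKO 3 it stood at 1.45, 0 and 0.692 FPKM. In so short a gene such values rest on very few reads, so its rank may reflect counting error. Cd36, which takes up fatty acids, shared the low value of Dbp in HKO 2, at 5.94 FPKM against 11.8 to 16.9 in the other 5. Among the clock genes, Tef (0.443) and Per1 (0.493) were nearest to Dbp.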

How the data were processed

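Liver RNA-seq of 3 Flox and 3 HKO samples was used. Per the labels' protocols, 1.3 µg of total RNA entered a NEBNext Ultra library. FPKM values of each gene stand in 1 table that the authors deposited, beside the gene's length in bases. The builds are GRCm38 and mm10, per the submitters' processing notes. Aligner, counter and annotation: not given in the sources used here. Of the deposited gene identifiers, 99.9% occur in GENCODE release M21.

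Multiplied by gene length and divided by a constant of the library, FPKM came out whole for 100% of values above 0 (tolerance 0.02 reads), which gave reads. One FPKM in a 1 kb gene stood for 14.8 to 18.5 reads. This constant did not simply follow the reads on genes. It was 15.37 in Flox 1, with 15804115 reads, and 14.85 in Flox 2, with 15893656 reads. Log2(FPKM + 1) was tested over all 11856 genes with limma 3.58.1 in R 4.3.3 (trend, robust, statmod 1.5.0), two-sided, with Benjamini-Hochberg adjustment at 0.05. The fit was tested on simulated reads with the same variability setting for all genes. That setting does not cover the wider spread of the clock genes, so it does not show how well changes in them would be found. Single values had an exact permutation test (scipy 1.17.1). Exon overlaps came from GENCODE, and blastn 2.17.0 found 0 transcripts of other genes with at least 97% identity over 80% of a member's length.

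The members and lists were chosen with earlier results of these data known. Named are all members and G3bp1, Per3, Cry2, Npas2, Hlf and Ciart, up to 6 genes of each clock list and 3 of each cue list with the largest range over libraries, and the 5 genes most like Arntl or Dbp, predicted genes and pseudogenes left out. One gene that this rule names is not reported here. Alternatives were another pseudocount, other filters, TPM, quantile normalization, voom on reads, a replicate block and leaving out each library.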

Additional observations from a re-analysis of the deposited data

How the results depend on the processing

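Under all 13 alternatives 0 clock genes passed over all genes in limma or voom (a mean of at least 5 FPKM left 5 of the 10 to test), and of 125 refits of single members 109 kept their direction. Arntl turned to -0.007 under quantile normalization and ranged from -0.210 to 0.126 with 1 library left out. Nr1d1 turned to 0.105 under TPM and 0.014 under quantile normalization, and Tef to 0.129 and 0.003. With 1 library left out, Per1 ranged from -0.084 to 0.525, Nr1d1 from -0.211 to 0.085, Nr1d2 from -0.061 to 0.213 and Tef from -0.151 to 0.112. The log2 ratio of Nr1d1 to Arntl, HKO minus Flox, ranged from -0.465 to 0.372. These directions rest on differences smaller than the spread between libraries, and the cause was not tested. Over all genes, 1 passed as lower and 0 as higher. The number lower was 0 with no filter, 2 at a mean of at least 5 FPKM and 3 in voom, and 0 to 12 with 1 library left out, where the number higher was 0 to 1 (12 and 1 without HKO 1). With the replicate block it was 0. Over all genes tested, same-numbered libraries correlated at 0.0215, 0.0150 and 0.0704, so the numbers were not taken as pairs. The block called 0 members, though it lowered unadjusted p-values in limma. These were 0.251 for Per1, 0.193 for Cry1 and 0.101 for Per2 with the block, and 0.616, 0.472 and 0.282 without it. The median spread of the members (0.287) was 0.349 with a pseudocount of 0.1, beside 0.210 for all genes, 0.379 under TPM, beside 0.194, and 0.261 to 0.316 with 1 library left out. Leaving out libraries for the spread and the ratios, and the alternatives for G3bp1 and listed genes, was added after seeing the data. G3bp1 passed in voom (adjusted p = 0.0370). Depth limits Arntl, at 53 to 190 reads, Per1, at 59 to 287, Ciart, at 7 to 39, and Npas2, at 7 to 37. It also limits Snord53, at 0 to 2.29 FPKM.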
